A study of Mus musculus with 6 samples.

Results

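The genes described here encode the proteins of the cytosolic ribosome, measured in mouse acute myeloid leukaemia cells. They were chosen by symbol: Rpl or Rps followed by a digit, or Rplp0, Rplp1, Rplp2 or Rpsa, without pseudogene symbols and the Rps6k kinases. Of 30142 genes with an array row of their own, 46 met this rule. They comprise 18 proteins of the large subunit, 15 of the small subunit, 12 paralogs or copies of ribosomal proteins and Rps19bp1, which encodes a protein that binds Rps19 and is not part of the ribosome. Another 42 symbols that fit the rule, among them Rpl5, Rplp1 and Rplp2, occurred only in rows that also name other genes, so no value is given for them by name.

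Leukaemia cells were taken from marrow of recipient mice when disease was at its end stage, sorted by flow cytometry and profiled on 6 Affymetrix arrays. Of these, 3 arrays carried RNA of control leukaemia from littermates and 3 that of leukaemia labelled as a knockout of the DNA methyltransferase gene Dnmt3b (Dnmt3b-KO); both groups carry the MLL-AF9 fusion oncogene. The sort markers, the ages, the Cre line and the deleted exons are not given in the sources used here. Neither is the number of mice behind the arrays, and p-values therefore cover only array-to-array spread, part of which may be technical. The comparison asks whether Dnmt3b-KO leukaemia differs from control leukaemia, here in its ribosomal protein transcripts.

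A ribosome is built from a small subunit, which reads the messenger RNA, and a large subunit, which joins the amino acids, and each needs a nearly equal supply of its many proteins. The genes are transcribed strongly in nearly all cells, and many of their mRNAs begin with a C followed by a stretch of pyrimidines, the 5' TOP, through which mTOR and Larp1 set their translation. In blood, loss of a single copy of several of these genes causes Diamond-Blackfan anaemia, and loss of a copy of Rps14 contributes to the 5q- syndrome.

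Short motifs, which the choice by symbol did not use, were searched in the RefSeq start regions of these genes. Each region ran from 250 bases before to 50 after an annotated start in GRCm38.p6. Such a region was at hand for 38 of the 46 genes, with 46 starts in all. The motif TCTCGCGA, searched on both strands, was in 8 of these 46 starts (17.4%) and in 0.995% of 32851 starts of all genes. It lay at 7 genes, which are shown with the motif or its reverse complement TCGCGAGA in capitals, each as 30 bases read 5' to 3' along the gene.
Rpl7a, chr2:26910744-26910773, plus strand: agggcgcctgcTCTCGCGAtatctgcggcc
Rpl10a, chr17:28328523-28328552, plus strand: taacgggcaacTCTCGCGAgaacgcgggct
Rpl12, chr2:32961647-32961676, plus strand: gggccagcggtTCTCGCGAgagctgagctt
Rpl35, chr2:39005302-39005331, minus strand: ggtgttgctcaTCGCGAGActcagtttccc
Rps3a1, chr3:86142676-86142705, minus strand: gccagctagtgTCGCGAGAttcttaaagcc
Rps19, chr7:24884554-24884583, plus strand: ggtttagccgcTCTCGCGAgcactccgaaa
Rps28, chr17:33824545-33824574, minus strand: accgcgtgcggTCTCGCGAgagcgaaagtg
At Rps28 the motif spans the annotated start. The motif CCGGAA, the core bound by ETS factors, was on either strand in 20 of 46 starts (43.5%) and in 14.9% of all starts. An unbroken run of at least 8 C or T, within 15 bases before to 20 after the start, was in 16 of 46 (34.8%) and in 13.7% of all. ATGGCG was in 26.1% and 8.93%, TATAAA in 13% and 13.6%, and CCAAT in 26.1% and 37.4%, on either strand. These motifs were chosen with some of the sequences in view, and a match is not evidence that a factor binds there.

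Across 6 arrays, 0 of the 46 ribosomal protein genes passed the threshold of an adjusted p under 0.05 (limma with Benjamini-Hochberg adjustment over all genes). That is also the background, as 0% of 30142 genes passed. At an unadjusted p under 0.05 there were 2 of the 46 (4.35%), against 6.37% of all genes. The median change of the 46 on the log2 scale, Dnmt3b-KO minus control, was -0.0034, beside -0.0036 over all genes, with 22 changes above 0 and 24 below. With repeated quantile normalization 30 were above 0 and the median was 0.03, and with arrays centred on their medians 18 were above 0 and it was -0.02. Over all genes the medians under these scalings were -0.01 and -0.02, with 13526 and 12654 of 30142 genes above 0. The deposited log2 values reach above what a scanner can give, by a step that is not stated, so changes are given in these units and not as folds. The 95% interval of the change lay within 0.5 on either side of 0 for 42 of the 46 genes, and for 71.4% of all genes.

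Dnmt3b-KO replicate 3 stood apart from the other 5 arrays, with correlations of 0.981 to 0.982 to each of them across all genes; these 5 reached 0.999 with one another. All comparisons are therefore also given without it. Its monocyte and macrophage markers were high: 10 of 14 measured exceeded Dnmt3b-KO replicates 1 and 2 by over 1, and the list's mean level was 10.36, against 6.66 to 6.89 on the other arrays. Of its defining genes, Mrc1 was at 12.05 there and at most 4.63 elsewhere and C1qb at 9.75, while C1qa at 4.84 was close to the median gene. Markers of mast cells, basophils and eosinophils differed between the groups in both directions. On 5 arrays 6 of 10 fell and 1 rose (limma, adjusted p under 0.05, with backgrounds of 0.75% and 0.939% of all genes). Cpa3 had a change of -3.12 and Prg2 of -3.36, and Siglecf of 1.01. The list's mean level was 8.21 to 8.26 in control and 7.13, 7.37 and 6.15 in Dnmt3b-KO. The part of these lists in the results on ribosomal protein genes was not tested. Leukaemia and immature myeloid markers were above the array median on all arrays, with Mpo between 16.54 and 17.49, but lower on replicate 3: the median difference of 10 measured from Dnmt3b-KO replicates 1 and 2 was -0.87. Of these, 3 were lower by over 1, namely Kit (-1.70), Csf3r (-1.69) and Meis1 (-1.81), and 1 was higher by over 1, Itgam (1.49). In sorted cells measured in bulk, fewer cells of a type and less RNA per cell cannot be told apart. Dnmt3b itself measured 6.76, 6.83 and 6.78 in the controls, and 6.47, 6.63 and 5.96 on the Dnmt3b-KO arrays in the order of their numbers. All 3 Dnmt3b-KO values were lower, but the change did not pass over 6 arrays (-0.44 ± 0.17, limma adjusted p = 0.781) or 5 (-0.24 ± 0.07, adjusted p = 0.159). These values do not show loss of the transcript, and whether the row lies in the deleted part is not known here.

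On the 5 arrays without Dnmt3b-KO replicate 3, again 0 of the 46 genes passed, while 509 of all genes (1.69%) did, 0.939% higher and 0.75% lower. At an unadjusted p under 0.05 there were 4 of the 46 (8.7%), against 15.5% of all genes. The largest change in either direction was 0.24, and all 46 intervals lay within 0.5 of 0, from -0.27 to 0.39 at their outermost. Over all genes 89.9% of the intervals did so. The median change was 0.03, with 32 of 46 changes above 0, against a median of -0.0096 and 46.3% above 0 over all genes. The number of 32 was the same after repeated quantile normalization and with each array centred on its median. All these counts rest on the same few arrays. The median deviation of the 46 from the control mean was 0.055 and 0.021 on Dnmt3b-KO replicates 1 and 2. On the controls it was -0.015, -0.005 and 0.018, so replicate 2 lay close to the highest control. The median spread between arrays of a group (residual SD) was 0.06 for these genes and 0.08 for all genes.

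**Figure D1:**
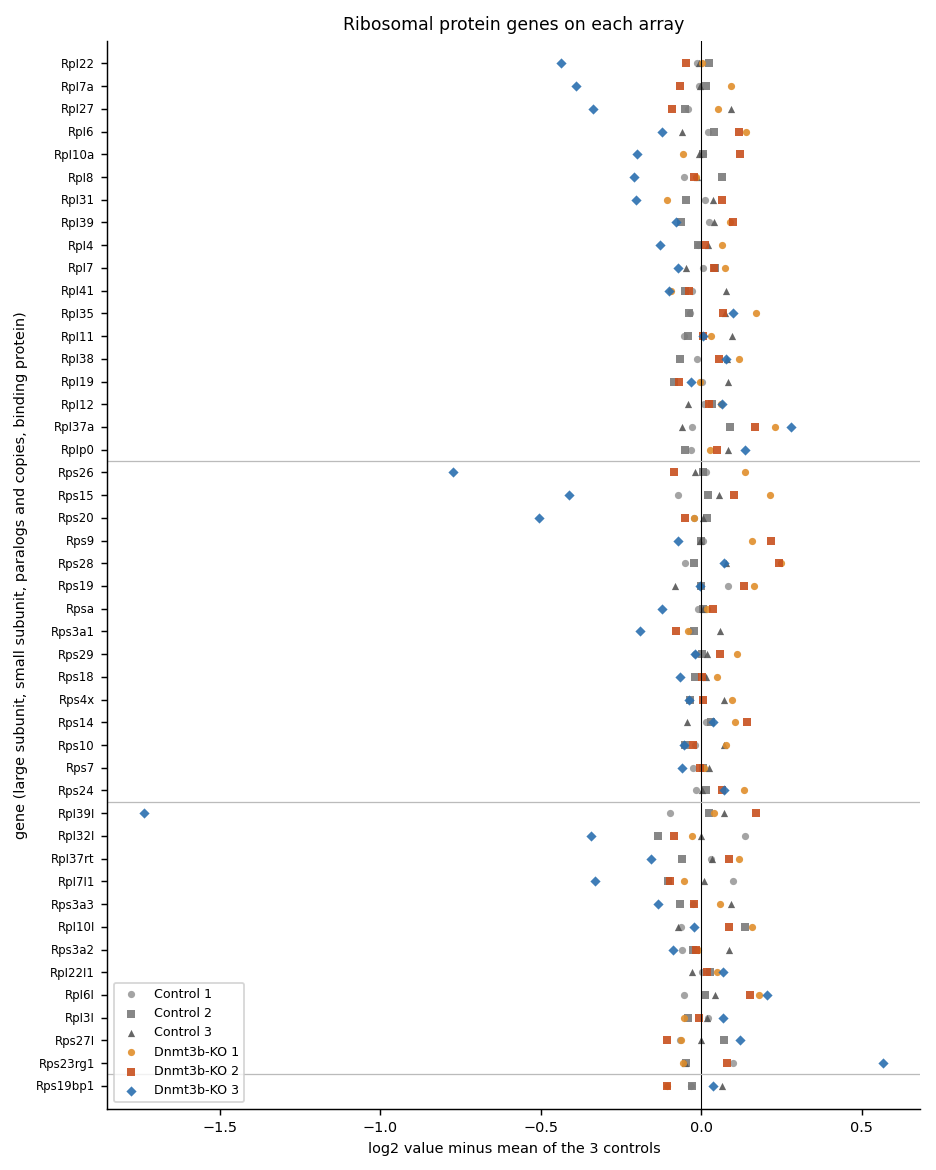
Each row is a gene and each point an array; the horizontal axis gives the deposited log2 value minus the mean of the 3 controls. Horizontal lines separate large subunit, small subunit, paralogs and copies, and the binding protein. The control arrays and Dnmt3b-KO replicates 1 and 2 cluster near 0 in every row, while replicate 3 (diamonds) lies far to the left for Rpl39l, Rps26, Rps20, Rps15 and Rpl22 and to the right for Rps23rg1.

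In the small subunit, 13 of 15 genes had a change above 0 on 5 arrays (46.3% of all genes) and the median was 0.05. Over 6 arrays 7 of 15 were above 0 (48.8% of all genes), with a median of -0.0016. Rps28, which lies near the mRNA exit channel and is mutated in some Diamond-Blackfan families, measured 8.10, 8.13 and 8.23 in control and 8.40, 8.40 and 8.22 in Dnmt3b-KO, in the order of replicate numbers as in all sentences that follow. Dnmt3b-KO replicates 1 and 2 lay above every control and replicate 3 among them. Its change was 0.24 ± 0.06 (SE) on 5 arrays, the largest of the 46, and did not pass (limma, adjusted p = 0.131). Over 6 arrays it was 0.19 ± 0.08 (adjusted p = 0.78). Rps9, a protein of early small subunit assembly, measured 11.85, 11.84 and 11.84 in control and 12.0003, 12.06 and 11.77 in Dnmt3b-KO. Its groups did not overlap on 5 arrays (change 0.19 ± 0.05, limma adjusted p = 0.17), but replicate 3 lay below every control.

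Rps19, the gene most often mutated in Diamond-Blackfan anaemia, measured 8.95, 8.87 and 8.79 in control and 9.03, 9.0 and 8.87 in Dnmt3b-KO. The groups overlapped through replicate 3, and the change was 0.10 ± 0.08 over 6 arrays and 0.15 ± 0.07 over 5 (limma, adjusted p = 0.83 and 0.37). Rps14, the 5q- syndrome gene, measured 8.82, 8.83 and 8.76 in control and 8.91, 8.94 and 8.84 in Dnmt3b-KO. All 3 Dnmt3b-KO values were above the controls, replicate 3 only just, and the change of 0.09 ± 0.06 did not pass (limma, adjusted p = 0.83). Rps24, also mutated in Diamond-Blackfan anaemia, had the same order of groups, with controls from 10.37 to 10.40 and Dnmt3b-KO values from 10.45 to 10.52. Rps3a1, a protein of the solvent side of the small subunit, had the opposite order. It measured 17.01, 17.02 and 17.10 in control and 17.0004, 16.96 and 16.85 in Dnmt3b-KO (change -0.10 ± 0.07, limma adjusted p = 0.83). Rpsa, known also as the laminin receptor precursor, measured 15.86 to 15.88 in control and 15.89, 15.91 and 15.75 in Dnmt3b-KO.

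Of the 46 genes, 11 are known to be mutated in Diamond-Blackfan anaemia. None passed on 6 or 5 arrays, where 0% and 1.69% of all genes did. At an unadjusted p under 0.05 there were 0 and 1 of the 11, beside 6.37% and 15.5% of all genes. The median change of the 11 was 0.01 on 6 arrays and 0.03 on 5.

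In the large subunit, 12 of 18 genes had a change above 0 on 5 arrays, with a median of 0.03. Over 6 arrays 9 of 18 were above 0, with a median of -0.0024. Over all genes these shares were 46.3% and 48.8%. Rpl37a, a zinc finger protein of that subunit, measured 12.77, 12.89 and 12.74 in control and 13.03, 12.97 and 13.08 in Dnmt3b-KO. All 3 Dnmt3b-KO values, replicate 3 included, were above every control. Its change was 0.23 ± 0.07 over 6 arrays, the largest above 0 among the 46, and did not pass (limma, adjusted p = 0.68). Over 5 arrays it was 0.20 ± 0.07 (adjusted p = 0.23). Rplp0, the base of the stalk that recruits translation factors, measured 14.53, 14.51 and 14.64 in control and 14.58, 14.61 and 14.70 in Dnmt3b-KO, with overlapping groups. Rpl11, which with Rpl5 and 5S RNA can bind Mdm2 and so raise p53, measured 7.36, 7.38 and 7.51 in control and 7.45, 7.42 and 7.42 in Dnmt3b-KO. Its change of 0.01 had an interval from -0.14 to 0.17 over 6 arrays. Rpl35, close to the exit of the peptide tunnel, had 0.11 ± 0.06 and Rpl41, a very short peptide, -0.08 ± 0.06, both over 6 arrays and not passing (limma, adjusted p = 0.83 for each).

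Every Dnmt3b-KO value was above every control for 4 of the 46 genes (Rpl37a, Rpl6l, Rps14 and Rps24) and below for 1 (Rps3a1). Over all genes these orders held for 6.68% and 8.21%. On 5 arrays the counts were 13 above and 2 below, against 15.1% and 17.4% of all genes.

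**Figure D2:**
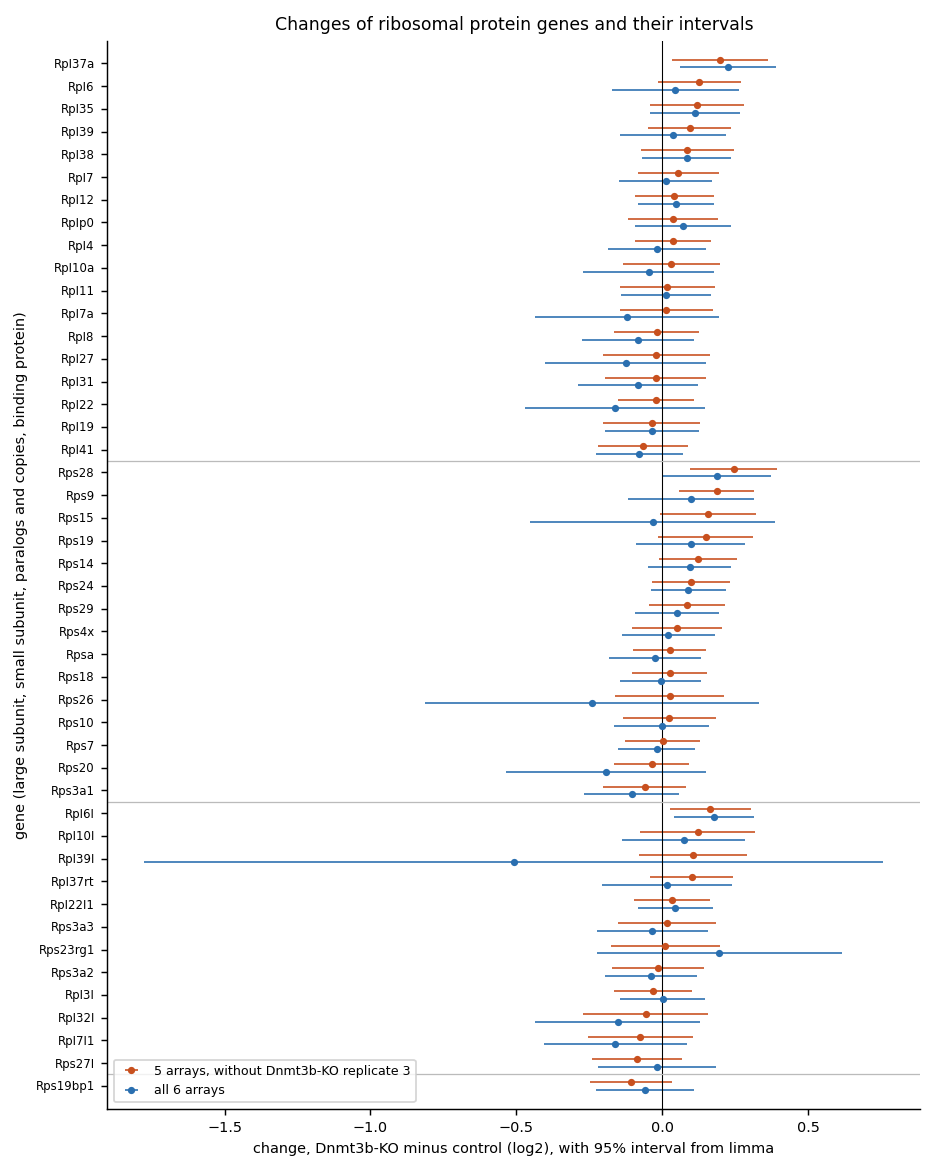
Points give the fitted change, Dnmt3b-KO minus control in log2 units, and bars its 95% interval from limma, for each gene on 5 arrays (upper bar of a pair) and on all 6 (lower bar). On 5 arrays all 46 intervals stay within 0.5 of 0, and on 6 arrays those of Rpl39l, Rps26, Rps23rg1 and Rps20 reach past it.

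The 12 paralogs and copies include genes that replace a ribosomal protein in certain tissues. On 5 arrays their changes ran from -0.09 to 0.17. Rpl3l, the paralog of striated muscle, lay between 4.02 and 4.14 on all arrays, and Rpl10l, the retrogene of testis, between 4.46 and 4.69. Both are below 4.79, the median over genes of the mean level. Rpl22l1, the paralog that can stand in for Rpl22, measured 10.05, 10.07 and 10.02 in control and 10.10, 10.07 and 10.11 in Dnmt3b-KO, with overlapping groups and a change of 0.05 ± 0.05. Rps27l, a p53 target, measured 10.35, 10.48 and 10.41 in control and 10.35, 10.31 and 10.53 in Dnmt3b-KO. Rpl7l1, needed for large subunit assembly, had changes of -0.16 ± 0.10 over 6 arrays and -0.07 ± 0.07 over 5. Rpl6l, a copy of Rpl6 that RefSeq lists as a pseudogene, measured 12.26, 12.33 and 12.36 in control and 12.49, 12.47 and 12.52 in Dnmt3b-KO. The groups did not overlap, and the change of 0.18 ± 0.06 did not pass (limma, adjusted p = 0.70). The copies Rps3a2, Rps3a3, Rpl32l and Rpl37rt had changes between -0.15 and 0.02 over 6 arrays, and none passed. Rps19bp1, the binding protein, measured 8.61, 8.61 and 8.71 in control and 8.54, 8.54 and 8.68 in Dnmt3b-KO.

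The members differed most on Dnmt3b-KO replicate 3, which as a single array allows values and no test. Rpl39l, the paralog of Rpl39 that is abundant in testis, measured 9.30, 9.43 and 9.47 in control, 9.44 and 9.57 in Dnmt3b-KO replicates 1 and 2, and 7.67 in replicate 3. The difference of replicate 3 from the mean of the other Dnmt3b-KO arrays was -1.84, and the 5 other values spanned 9.30 to 9.57. Rpl39 itself, shown for comparison and picked after its values were seen, measured 11.06, 10.97 and 11.07 in control and 11.12, 11.13 and 10.95 in Dnmt3b-KO, so that replicate 3 differed by -0.17. Over 6 arrays the change of Rpl39l was -0.51 ± 0.51 (limma, adjusted p = 0.84), with an interval from -1.77 to 0.76. Without replicate 3 it turned to 0.11 ± 0.08 (adjusted p = 0.61), and with array weights it was 0.07.

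Rps26, which contacts the mRNA just upstream of the start codon, measured 17.22, 17.22 and 17.19 in control and 17.35, 17.13 and 16.44 in Dnmt3b-KO. The difference of replicate 3 from replicates 1 and 2 was -0.80. A second row named Rps26, placed on chromosome 8 where RefSeq has the gene on 10, showed -0.79, and another, on chromosome 12 and near 4.09, showed 0.03. The 250 bases before the RefSeq starts of Rpl39l and Rps26, the pair with the largest negative differences of replicate 3 from replicates 1 and 2, are printed with CCGGAA in capitals.
Rpl39l, chr16:10169978-10170227, plus strand: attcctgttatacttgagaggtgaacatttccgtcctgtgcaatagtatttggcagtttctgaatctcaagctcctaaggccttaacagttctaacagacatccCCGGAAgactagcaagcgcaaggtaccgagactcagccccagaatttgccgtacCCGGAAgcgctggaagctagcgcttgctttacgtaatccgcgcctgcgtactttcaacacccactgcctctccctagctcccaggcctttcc
Rps26, chr10:128626507-128626756, minus strand: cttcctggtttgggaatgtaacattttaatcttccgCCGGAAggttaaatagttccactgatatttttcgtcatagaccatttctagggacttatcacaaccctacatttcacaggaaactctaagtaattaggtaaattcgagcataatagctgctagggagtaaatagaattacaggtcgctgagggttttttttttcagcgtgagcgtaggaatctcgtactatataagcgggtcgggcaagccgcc
The hexamer occurs at a pair of places before Rpl39l and at a single one before Rps26.

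Rps15, of the decoding side of the small subunit, measured 13.68, 13.78 and 13.81 in control and 13.97, 13.86 and 13.34 in Dnmt3b-KO, a difference of -0.57 for replicate 3. Rps20, at the small subunit head, measured 9.99, 10.04 and 10.02 in control and 9.99, 9.97 and 9.51 in Dnmt3b-KO, a difference of -0.47. Rpl22, lost in some T cell leukaemias, measured 9.03, 9.07 and 9.04 in control and 9.05, 9.0 and 8.61 in Dnmt3b-KO, a difference of -0.41. For these 3 genes replicate 3 lay below every other array. Rps23rg1, a retroposed copy of Rps23, ran the other way, at 6.08, 5.94 and 5.93 in control and 5.93, 6.07 and 6.55 in Dnmt3b-KO, a difference of 0.56. A second row of Rps23rg1, also on chromosome 8 and near 4.22, showed 0.21. After Rps23rg1, the genes next on the higher side were Rps27l (0.21), Rps19bp1 (0.14), Rpl3l (0.10) and Rplp0 (0.10).

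**Figure D3:**
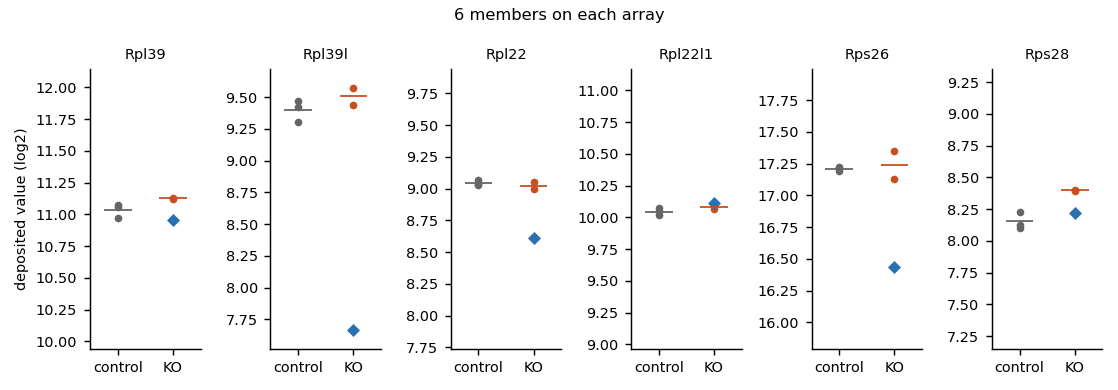
Each panel gives the deposited log2 value of a gene on each array: grey points for the 3 controls, orange points for Dnmt3b-KO replicates 1 and 2 and a blue diamond for replicate 3, with bars at the means of the grey and of the orange points. All panels span 2.2 units; the diamond is far below the rest for Rpl39l and Rps26, below them for Rpl22 and close to them for Rpl22l1.

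Replicate 3 was lower than Dnmt3b-KO replicates 1 and 2 by over 0.5 in 3 of the 46 genes (Rpl39l, Rps26 and Rps15) and higher by over 0.5 in 1, Rps23rg1. All genes gave 11.9% and 9.03%. Just inside the limit was Rps15 and just outside was Rps20. As deposited, 36 of 46 genes were lower there, with a median difference of -0.13 against 0.02 over all genes. This direction depends on the scaling: after repeated quantile normalization 24 of 46 were lower and the median was -0.0022, while with arrays centred on their medians 41 were lower and the median was -0.22. Centring moved the median over all genes to -0.07 and quantile normalization to -0.04. Rpl39l, Rps26, Rps15, Rps20 and Rpl22 were lower on replicate 3 under each of these scalings, with -1.77, -0.61, -0.44, -0.35 and -0.33 as the values nearest to 0. The macrophage markers were high on the same array, and their part in these differences was not tested. On deposited values, replicate 3 was below all other arrays in 28 of the 46 genes and above all in 8, against 31.3% and 33.9% of all genes. These counts were not taken under the other scalings.

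**Figure D4:**
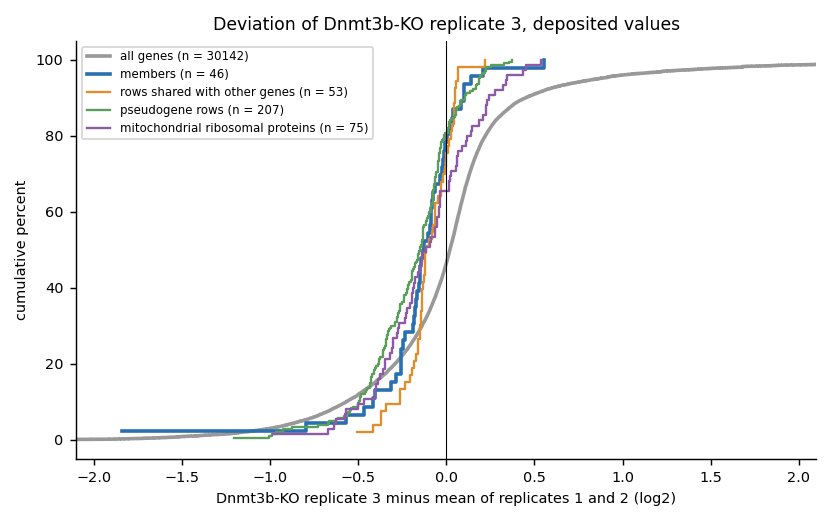
Cumulative percent (vertical axis) of the difference between Dnmt3b-KO replicate 3 and the mean of replicates 1 and 2 in log2 units, for the 46 members, 53 rows shared with other genes, 207 ribosomal pseudogene rows, 75 mitochondrial ribosomal protein genes and all 30142 genes. The medians of the first 4 sets lie between -0.12 and -0.15 as deposited, and that of all genes at 0.02. This gap depends on the scaling. After repeated quantile normalization the medians were -0.0022 for members, -0.042 for mitochondrial genes and -0.043 for all genes. With arrays centred on their medians they were -0.22, -0.21 and -0.07. The shared and pseudogene rows were read as deposited only.

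Ribosomal protein genes have many near-identical copies in the genome, and the array rows reflect it. For 6 members (Rpl7a, Rpl12, Rpl27, Rpl31, Rpl35 and Rpl41) the row kept lies, by its identifier, on another chromosome than the RefSeq gene, whereas 99.8% of all genes with both had matching chromosomes. Signal from gene and copy cannot be told apart in these rows. For Rpl7a, Rpl27, Rpl35 and Rpl41 a second row lies on the gene's own chromosome. On 5 arrays Rpl35 had a change of 0.12 on the kept row and -0.01 on the row of its own chromosome. The order was the opposite for Rpl27, with -0.02 and 0.10, and for Rpl7a, with 0.01 and 0.10, while Rpl41 had -0.07 on both. With rows on the RefSeq chromosome where there were any, 0 genes passed on 6 or 5 arrays, and the median change on 5 arrays was 0.03.

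The 53 rows that name a ribosomal protein gene beside other genes include those of the proteins without a row of their own. They were taken whether or not the gene also had such a row. None passed over 6 or 5 arrays (limma, lowest adjusted p = 0.68 and 0.19), and at an unadjusted p under 0.05 there were 4 and 5 of 53, beside 6.37% and 15.5% of all genes. Their median change was -0.0012 over 6 arrays and 0.03 over 5, where they ran from -0.18 to 0.21. On replicate 3 their median difference was -0.12, with 39 of 53 below 0 as deposited. The 207 rows with ribosomal pseudogene symbols had a median change of -0.04 over 6 arrays and 0.03 over 5, and a median difference of -0.15 on replicate 3.

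Mitochondrial ribosomes have their own proteins, encoded in the nucleus by the Mrpl and Mrps genes. Of 75 such genes 0 passed on 6 or 5 arrays, and 16% and 18.7% had an unadjusted p under 0.05, beside 6.37% and 15.5% of all genes. Their median change was -0.08 over 6 arrays, with 55 of 75 below 0, and -0.07 over 5, with 52 below 0. For all 30142 genes the medians were -0.0036 and -0.0096, with 15437 and 16195 below 0. Over 5 arrays 49 to 53 of the 75 were below 0 under the scalings tried (14676 to 16195 of all genes). Over 6 arrays 49 to 59 of the 75 were below 0 (15437 to 17488 of all genes). The gene with the smallest p in both was Mrpl49, with a change of -0.38 ± 0.07 over 5 arrays (limma, adjusted p = 0.072). It measured 9.63, 9.63 and 9.76 in control and 9.23, 9.36 and 9.02 in Dnmt3b-KO, without overlap. The difference between the cytosolic and mitochondrial sets was not tested.

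**Figure D5:**
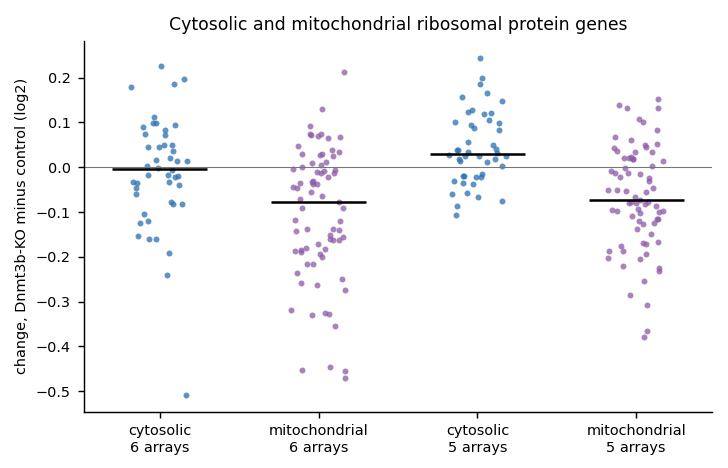
Each point is a gene and its height the change, Dnmt3b-KO minus control in log2 units; black bars are medians, and points are spread sideways at random. Medians of the 46 cytosolic genes are at -0.0034 and 0.03 for 6 and 5 arrays, and those of the 75 mitochondrial genes at -0.08 and -0.07.

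Other genes of translation were read from lists chosen for this purpose. The background for the counts that follow is 0% of all genes passing over 6 arrays and 1.69% over 5. Fau, which encodes a fusion with a small subunit protein, was measured alone of its list of 3, with a change of 0.17 ± 0.11 over 6 arrays (limma, adjusted p = 0.83). Of 21 measured translation factors and other TOP mRNAs 0 passed in either comparison. Their median changes were -0.02 over 6 arrays and 0.01 over 5. Those with the smallest p were Eif2s3x, an initiation factor subunit (-0.27 ± 0.08 over 6 arrays), and Tpt1, a classical TOP mRNA (0.20 ± 0.06 over 5). Of 21 regulators of ribosomal protein genes and mRNAs 0 passed. Larp1, which binds the 5' TOP, measured 13.95, 13.90 and 14.08 in control and 13.72, 13.74 and 13.65 in Dnmt3b-KO, without overlap, and its change of -0.27 ± 0.07 over 6 arrays did not pass (limma, adjusted p = 0.65). The kinase gene Rps6ka3 had the smallest p of that list on 5 arrays (0.20 ± 0.05, limma adjusted p = 0.14). Of 13 genes of ribosome quality control 0 passed, and Abce1, the recycling factor, had -0.19 ± 0.07 over 5 arrays (limma, adjusted p = 0.24).

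In the list of p53 and its targets, which responds to unassembled ribosomal proteins through Mdm2, 0 of 14 passed over 6 arrays, where Mdm4 had the smallest p (0.33 ± 0.10, limma adjusted p = 0.705). On 5 arrays 2 of 14 passed, both higher, beside 0.939% of all genes called higher. Pmaip1, a BH3-only gene, rose by 0.60 ± 0.06 (limma, adjusted p = 0.016) and Trp53inp1 by 0.47 ± 0.06 (0.032). On replicate 3, Pmaip1 at 8.91 lay below every control, and Trp53inp1 at 6.48 above every control. The other 12, on 5 arrays, did not pass, and the list's median change there was 0.02. Over 6 arrays it was 0.24, with 11 of 14 above 0, beside 48.8% of all genes. On 5 arrays 8 of 14 were above 0, beside 46.3% of all genes. On replicate 3 the list's median difference from Dnmt3b-KO replicates 1 and 2 was 0.24. Of the 14 genes, 5 were higher there by over 0.5 and 2 lower, beside 9.03% and 11.9% of all genes.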

How the data were processed

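Log2 values were used as deposited; per the submitters' processing notes the authors normalized with RMA, version and genome build not given in the sources used here. Values reach 19.6, above 16, the log2 of a scanner's range, so a further step is unstated. Of 72688 rows, 6732 are controls; 30604 have exactly 1 symbol in an older platform annotation, 2146 several and 33206 none. Symbols of 827 rows were updated by gene identifier in RefSeq (GRCm38.p6). Each gene was read from its row of highest mean, which gave 30142 genes. Groups were compared with limma 3.58.1 in R 4.3.3 (lmFit, eBayes, Benjamini-Hochberg over all genes), on 6 arrays and without Dnmt3b-KO replicate 3. The fits were tested on simulated data whose spread was taken from the other 5 arrays. The deviation of replicate 3 was not simulated.

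The members and lists were chosen with earlier results of these data known, and Rpl6l, Rpl32l and Rps23rg1 were classed as copies after the files were seen. Named are the 6 members per direction with the smallest p in each comparison, the 5 per direction with the largest deviation of replicate 3, all paralogs and copies, Rps19, Rpl11, Rplp0 and Rpsa; from other lists 2 called genes per direction or that with the smallest p. Alternatives were a variance trend, array weights, a replicate block, other scalings, a filter on dim genes, other row choices, a threshold of 0.1, no empirical Bayes and leaving out each array. Deviations from the group means correlated by 0.13, 0.03 and 0.11 between arrays of the same number. The Dnmt3b-KO mean includes the deviating replicate 3, so these values cannot decide whether the numbers are pairs. In the main fits they were not taken as pairs. The number of arrays limits the precision.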

Additional observations from a re-analysis of the deposited data

How the results depend on the processing

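Under every alternative run, 0 of the 46 ribosomal protein genes passed, on 6 arrays and on 5. A replicate block in the model left the count at 0 in both. On 6 arrays a block cannot alter the fitted changes, so the median stayed at -0.0034. On 5 arrays it takes Control replicate 3 out of the comparison, and its median of 0.03 is that of leaving this array out. The lowest adjusted p of a member (limma) was 0.082 on 5 arrays, among genes above the median level. The median change on 5 arrays ran from 0.021 to 0.055 when 1 more array was left out. The median difference of Dnmt3b-KO replicate 3, -0.13 as deposited, became -0.0022 when quantile normalization was repeated and -0.22 when each array was centred on its median. The added choices (rows on the RefSeq chromosome, the 33 ribosomal proteins proper, and shared rows) gave -0.13, -0.13 and -0.12. Of the named members none passed under any alternative. On 6 arrays the change of a named member had the opposite sign, without passing, in 17 leave-one-out values and 13 others, and on 5 arrays in 11 and 3. Levels near or below the median gene (Rpl3l, Rpl10l) and rows that may read copies limit what can be seen. Some members, such as Rpl4 and Rpl12, lie above 16, the log2 of a scanner's range. How the unstated step acts on their changes and intervals is not known.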
